A study of Rattus norvegicus with 4 samples.

Results

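The subject here is the response of rat astrocytes to a compound that the labels call GW, when it was added to interferon-γ (IFN-γ) in cells carrying a control siRNA. It was measured as the log2 value of each gene in the culture given IFN-γ and GW minus its value in the culture given IFN-γ alone, so it rests on 2 of the 4 arrays of the series, 1 per culture. Members were the genes with a probe of 1 symbol, each gene taken at its brightest probe (by mean over all arrays), whose highest value reached 5.83, the median of all values in the table. This kept 11790 of 18166 genes. A gene was called higher or called lower when its difference reached 2-fold (1 on the log2 scale) in that direction.

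All 4 cultures were primary astrocytes taken by trypsin from the cerebral cortex of Sprague-Dawley rats aged 1 day, and all were held for 2 days in medium without serum, a step meant to remove microglia and meningeal cells. The culture called untreated received the control siRNA and no IFN-γ. A pair of cultures with the same siRNA received IFN-γ, either alone or with GW, and the treatment lasted 3 h. The remaining culture received an siRNA against SHP, then IFN-γ and GW. The number of pups behind each culture, whether cultures came from 1 preparation, the dose of each agent and the full name of GW are not stated in the labels. With 1 array per group there is no p-value, no standard deviation and no replicate check, and what GW did cannot be told apart from how 1 culture, or 1 array, differs from the next. A culture with GW and no IFN-γ was not analysed here, so a GW difference in these data is always a difference on top of IFN-γ.

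IFN-γ is a lymphocyte cytokine whose receptor signals through the kinases JAK1 and JAK2 and switches on genes of antigen presentation, antiviral defence and chemokine release. Immediate early genes are a second class of fast genes: they are transcribed within minutes of a stimulus without new protein synthesis, through factors such as SRF and CREB, and many encode short-lived transcription factors of the AP-1, EGR and NR4A families. SHP (gene Nr0b2) is a nuclear receptor without a DNA-binding domain that represses other nuclear receptors.

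The cultures held transcripts of astrocytes and of other cells. The intermediate filament gene Gfap stood at 12.03, 12.06, 12.11 and 12.06 in the untreated, IFN-γ, IFN-γ with GW, and SHP siRNA arrays, the order in which 4 values are given throughout. Of 16 astrocyte markers measured, 14 passed the filter, with 0 called, 11 below 0 and a median difference of -0.21. All 19 microglia and myeloid markers measured also passed the filter. Their summed linear signal was 20571, 16300, 11655 and 13102, so it was lowest in the culture with IFN-γ and GW, and 17 of the 19 were below 0 with a median of -0.47. In such bulk samples fewer cells of a type and less RNA per cell cannot be told apart. The summed signal of the astrocyte markers was 23766, 25590, 22539 and 26663.

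Most genes differed little between the arrays with and without GW. The median difference was -0.05, the quartiles were -0.24 and 0.13, and 95% of genes lay between -0.75 and 0.62. Of all 11790 genes, 6817 were below 0 and 4966 above it. At 2-fold, 113 genes were higher with GW (0.958% of genes) and 112 were lower (0.95%). These shares are the ones to set beside the count of called genes in each list below. The upper tail was the longer one, with 29 genes higher and 6 lower at 4-fold, and 4 higher and 0 lower at 8-fold. Just inside the 2-fold threshold were Ajuba at 1.002 and Sft2d2 at -1.0069, and just outside it Btn2a2 at 0.991 and Glipr1 at -0.999. The dimmest gene kept was Plekhn1 and the brightest left out was Unc5a, whose highest values were 5.8318 and 5.8315.

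**Figure D1:**
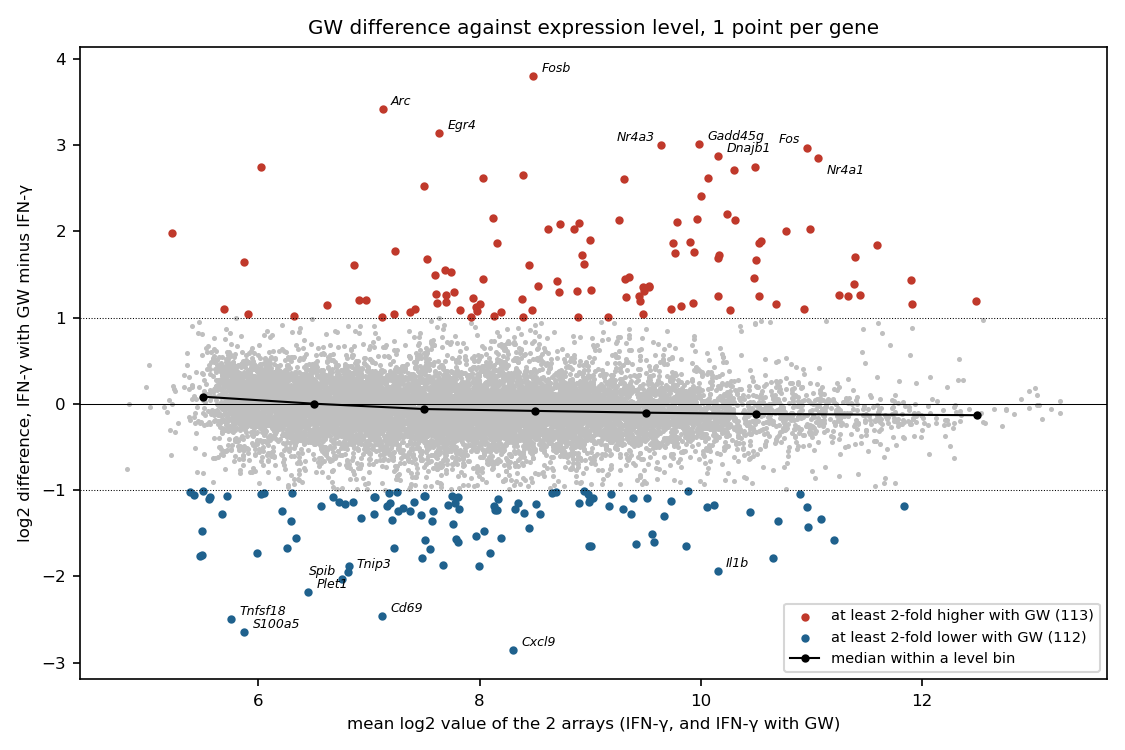
Each point is a gene, with its mean log2 value over the IFN-γ array and the IFN-γ with GW array on the horizontal axis and the GW difference on the vertical axis. Red points are the 113 genes at least 2-fold higher with GW, blue points the 112 at least 2-fold lower, and the black line joins the median of each level bin, which runs from 0.08 for genes between 5 and 6 to -0.13 above 11.

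The called genes differed in where they stood in the arrays without GW. The 113 higher genes had median levels of 8.13 untreated, 8.14 with IFN-γ, 9.94 with IFN-γ and GW, and 9.20 with SHP siRNA. The 112 lower genes had medians of 7.37, 8.41, 7.03 and 7.69. The IFN-γ and GW arrays chose these genes, so these levels describe them and test nothing. Of the higher genes, 7 lay below 5.83 in the IFN-γ array, and of the lower genes 22 lay below it in the GW array. Values in that range may be at the background of the arrays, which is unknown, so the size of those differences is uncertain. A gene that passed the filter through the IFN-γ array alone, or through the GW array alone, had its sign fixed by the filter.

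The AP-1 genes Fosb and Fos had GW differences among the greatest of all genes. AP-1 is a dimer of Fos, Jun and related leucine zipper proteins that binds DNA. Of the 14 AP-1 and small Maf genes past the filter, 5 were called higher and 0 lower, beside the 0.958% and 0.95% of all genes, and the list median was 0.64 against -0.05 for all genes. The same list had medians of 0.42 for IFN-γ minus untreated and 0.42 for SHP siRNA with IFN-γ and GW minus IFN-γ, comparisons that share the IFN-γ array with the GW difference.

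Fosb, which encodes a Fos family member, had log2 values of 6.35, 6.58, 10.39 and 8.999. It had the greatest difference of all 11790 genes, 3.80 or 14-fold. Fos stood at 9.33, 9.47, 12.44 and 11.83 and Jun at 9.33, 9.97, 11.998 and 11.36, differences of 2.97 and 2.02. For Fosb and Fos the untreated and IFN-γ arrays lay within 0.3 of each other and both GW arrays stood above them. Fosl1, which encodes the Fos relative FRA-1, stood at 8.03, 9.71, 10.80 and 10.14, so the IFN-γ array was above the untreated array. Its GW difference was 1.09. Atf3, a stress-induced partner of Jun, stood at 8.21, 9.14, 11.34 and 10.55, a difference of 2.19. Junb (0.90), Jund (0.69) and the small Maf genes Mafk (0.59), Mafg (0.27) and Maff (0.14) were within 2-fold, although Junb reached 1.00 after cyclic loess scaling. Maff had stood at 6.14, 8.95, 9.09 and 9.22, high in every array with IFN-γ. Batf2, an interferon-responsive member of the family, differed by -0.28.

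NR4A receptors, EGR zinc finger factors and other activity-regulated genes were the pathway list with the highest median, 1.33. Of 22 past the filter, 13 were called higher and 0 lower, beside 0.958% and 0.95% of all genes, and 18 were above 0. Arc, which encodes a synaptic protein first known from neurons, stood at 5.74, 5.42, 8.83 and 7.11, a difference of 3.42. Its level with IFN-γ was below 5.83, so the 10.7-fold is uncertain. Egr4 stood at 5.63, 6.07, 9.20 and 7.33 (3.13). All 3 NR4A genes, which encode nuclear receptors regulated mainly by their own synthesis, were higher with GW. Nr4a3 stood at 6.67, 8.14, 11.14 and 9.62, Nr4a1 at 8.34, 9.63, 12.48 and 11.75 and Nr4a2 at 8.59, 8.94, 11.66 and 9.79. Nr4a1 and Nr4a3 were more than 1 log2 unit higher in the IFN-γ array than in the untreated array, and their GW differences were 2.85 and 3.00. In Nr4a2 the SHP siRNA array, at 9.79, lay closer to the IFN-γ array than to the GW array.

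The other EGR genes followed the same order of arrays. Egr1, the founding member, stood at 10.15, 11.18, 12.62 and 12.27, Egr2 at 7.29, 8.73, 10.84 and 9.63 and Egr3 at 6.04, 7.33, 8.55 and 7.55, with GW differences of 1.44, 2.11 and 1.22. In each of these the untreated array was lowest and the GW array highest. Per1 (1.90), Ier2 (1.87) and the salt-inducible kinase gene Sik1 (1.75) were further high members. Npas4, a neuronal activity factor, differed by 1.64 but lay below 5.83 in the IFN-γ array. It passed the filter only through the GW array, so the filter fixed its sign. The G protein regulator gene Rgs2 went the other way, at 7.20, 9.10, 8.62 and 8.19, a difference of -0.48.

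The promoters of Egr1, Srf, Ier2 and Dusp1 are shown because they hold a match to the CArG box, which SRF binds, or to the cyclic AMP response element (CRE, TGACGTCA), which CREB binds. Most genes do not, and the promoters of Fosb, Egr4, Nr4a1, Nr4a2, Ccn1 and Hes1 held neither. Sequences and positions are those of RefSeq for rat assembly GRCr8, on the plus strand of the build, and capitals mark a CArG box in Egr1 and Srf and a CRE in Ier2 and Dusp1. Windows are chr18:26736948-26737077 for Egr1, chr9:21923946-21924075 for Srf, chr19:40399243-40399372 for Ier2 and chr10:17184723-17184852 for Dusp1, each 130 bases ending just before the annotated start.
Egr1: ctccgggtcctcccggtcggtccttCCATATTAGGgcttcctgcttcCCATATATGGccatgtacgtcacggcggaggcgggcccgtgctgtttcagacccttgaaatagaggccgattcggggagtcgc
Srf: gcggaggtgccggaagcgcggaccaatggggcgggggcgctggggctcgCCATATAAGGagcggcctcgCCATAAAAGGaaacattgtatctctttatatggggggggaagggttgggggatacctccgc
Ier2: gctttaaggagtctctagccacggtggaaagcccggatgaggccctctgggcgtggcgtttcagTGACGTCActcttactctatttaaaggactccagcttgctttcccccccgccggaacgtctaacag
Dusp1: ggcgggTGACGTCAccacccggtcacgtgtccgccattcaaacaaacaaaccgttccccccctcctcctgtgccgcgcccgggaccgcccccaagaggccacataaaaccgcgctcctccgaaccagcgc
Counted from the start, with -1 the last base before it, the CArG boxes began at -105 and -83 in Egr1 and at -81 and -61 in Srf. The CRE began at -66 in Ier2 and at -124 in Dusp1. Srf itself, which encodes the CArG-binding factor, stood at 8.54, 8.66, 9.67 and 8.97, a GW difference of 1.01, and Ier2, a nuclear immediate early protein, at 8.36, 8.97, 10.84 and 9.69. In both genes the GW array was the highest of the 4.

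Promoter windows of 250 bases before to 50 after the start were matched for 89 of the 113 higher genes, 90 of the 112 lower genes and 9672 of all 11790. A CArG box on either strand was in 6 of 89 (6.74%) promoters of higher genes, 1 of 90 (1.11%) of lower genes and 1.35% of all promoters. A CRE was in 6 of 89 (6.74%) of the higher, 0 of 90 of the lower and 3.09% of all. The AP-1 site TGACTCA was in 5.62%, 12.2% and 3.48%, and the EGR site GCGNGGGCG in 7.87%, 4.44% and 10.01%, so the AP-1 site had its largest share in the lower genes and the EGR site in all genes. These shares describe letters in a window and do not show binding.

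Kruppel-like zinc finger factors had a median of 0.77, with 4 of 12 called higher and 0 lower. Klf2, a factor known from endothelium and T cells, stood at 6.49, 6.23, 8.76 and 7.19 (2.53). Klf4, one of the reprogramming factors, stood at 6.53, 7.23, 9.09 and 7.70 (1.86). Klf6 stood at 9.56, 10.81, 12.07 and 11.62 (1.26), with the untreated array lowest, and Klf10 differed by 1.30. For Klf2 and Klf4 the SHP siRNA array, although higher than the IFN-γ array, lay more than 1 log2 unit below the GW array.

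Feedback inhibitors of the ERK and other MAP kinase pathways formed another list with a high median, 0.73. Of 15 past the filter, 5 were called higher and 0 lower. Dusp1, a phosphatase that inactivates p38 and JNK, stood at 8.46, 10.67, 12.51 and 12.04, a difference of 1.84, and the IFN-γ array was 2.21 above the untreated array. Dusp7 stood at 9.11, 8.61, 10.09 and 9.45 (1.47), Dusp8 differed by 1.22 and the receptor signalling inhibitor gene Spry4 by 1.21. Dusp4 differed by 1.02, which became 0.99 after cyclic loess. In Dusp7 the IFN-γ array was the lowest of the 4, unlike in Dusp1.

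Growth factors were mixed. Of 25 genes, 4 were called higher and 1 lower, with a median of 0.14. Hbegf, which encodes an EGF receptor ligand, stood at 7.79, 8.19, 10.32 and 9.13 (2.13), and Gdf15, a stress-induced hormone of the TGF-β family, at 8.06, 9.59, 11.48 and 11.30 (1.89). Inhba, which encodes the activin A subunit, stood at 7.19, 7.31, 8.75 and 7.32, so the SHP siRNA array was at the level of IFN-γ alone. Csf2, which encodes the cytokine GM-CSF, was the member called lower, at 5.48, 7.88, 6.54 and 6.49 (-1.34).

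Among 13 SRF and YAP targets, 3 were called higher and 0 lower, with a median of 0.24. Ccn1, a matrix protein gene induced by serum, stood at 8.46, 9.12, 11.87 and 11.38, a difference of 2.75. Amotl2, a YAP inhibitor, differed by 1.55.

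Heat shock genes were higher with GW throughout their list. These encode chaperones that refold or hold damaged proteins, and the factor HSF1 activates them. All 15 past the filter were above 0, also after quantile normalization, median centring and cyclic loess, with a median of 0.87. Of the 15, 6 were called higher and 0 lower, beside 0.958% and 0.95% of all genes. The list median was -0.03 for IFN-γ minus untreated and 0.34 for SHP siRNA with IFN-γ and GW minus IFN-γ. Dnajb1, the HSP40 co-chaperone, stood at 8.50, 8.72, 11.59 and 10.53 (2.87). Cryab, the small heat shock protein αB-crystallin of astrocytes, stood at 9.73, 9.77, 11.77 and 10.77 (2.00) and Hsph1, an HSP110, at 9.62, 9.59, 11.45 and 10.87 (1.86). In these genes the untreated and IFN-γ arrays lay within 0.25 of each other, the GW array was highest and the SHP siRNA array lay between. Bag3, an HSP70 partner in selective autophagy, stood at 9.98, 9.76, 11.21 and 10.32 (1.46). The constitutive chaperone gene Hspa8, at 12.97, 12.93, 13.11 and 13.08, differed by 0.18.

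The mitochondrial chaperonin genes Hspd1 (HSP60) and Hspe1 (HSP10) lie head to head, and their promoter windows in RefSeq share 211 bases. Hspd1 stood at 9.86, 9.53, 10.78 and 10.34 and Hspe1 at 9.50, 9.18, 10.28 and 9.45, differences of 1.25 and 1.10. The promoters of Hsph1 and Hspe1 are shown because both hold the heat shock element, a run of inverted GAA repeats that HSF1 binds, on either strand, marked in capitals. They are on the plus strand of GRCr8, at chr12:10427238-10427367 for Hsph1 and chr9:64084197-64084326 for Hspe1, 130 bases ending just before the start.
Hsph1: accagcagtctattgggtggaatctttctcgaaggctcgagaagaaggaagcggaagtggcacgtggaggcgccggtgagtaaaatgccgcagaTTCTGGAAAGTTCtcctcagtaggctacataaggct
Hspe1: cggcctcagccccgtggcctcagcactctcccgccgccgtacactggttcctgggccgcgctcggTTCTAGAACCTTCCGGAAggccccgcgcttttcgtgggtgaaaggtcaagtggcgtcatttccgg
The element lay from -36 to -24 in Hsph1, and in Hspe1 a pair of overlapping matches covered -65 to -48. It was found in 3 of 89 promoters of higher genes (Hsph1, Hspd1 and Hspe1), 3 of 90 of lower genes and 0.476% of all promoters. The match in Hspd1 and Hspe1 lies in their shared window, so the 3 promoters are not independent.

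**Figure D2:**
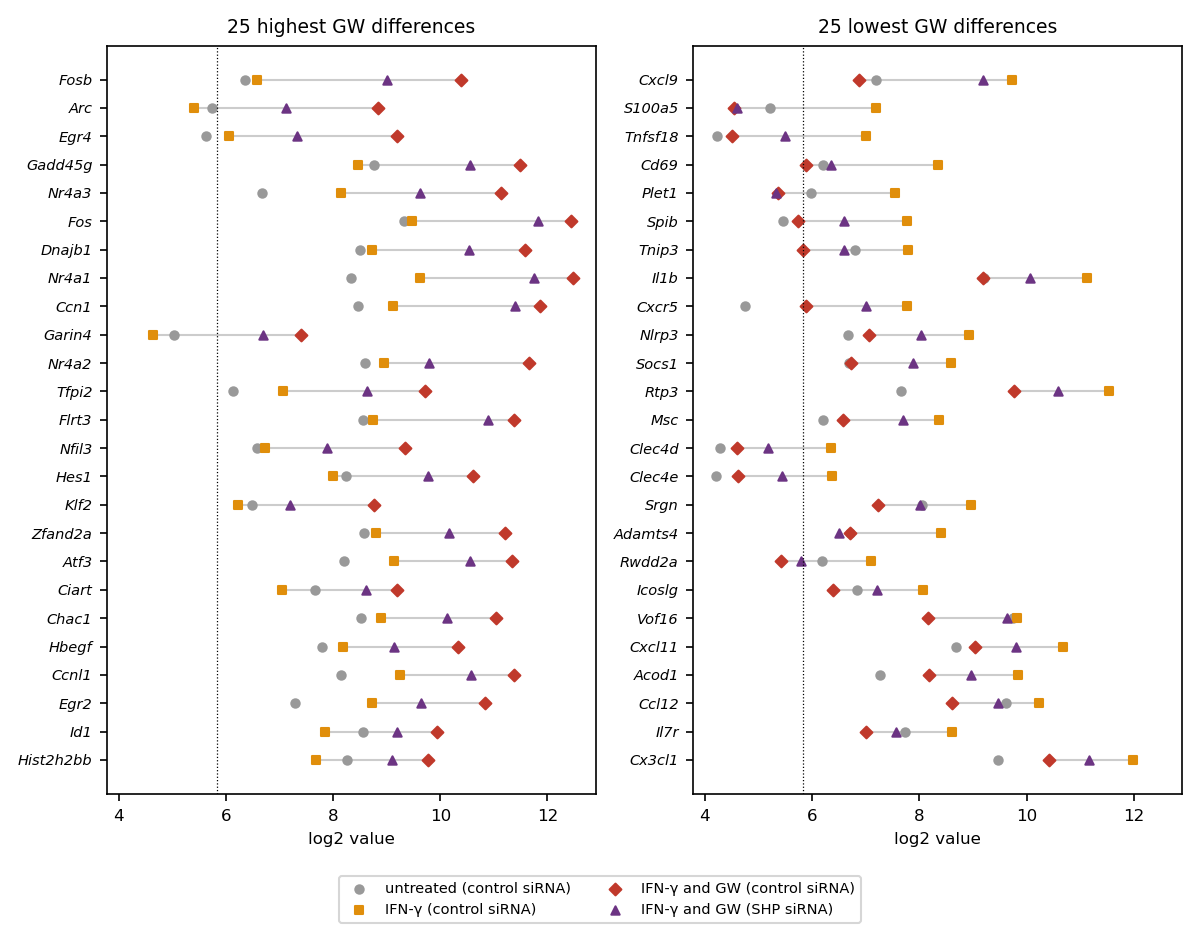
Each row is a gene and each symbol its log2 value in 1 of the 4 arrays, for the 25 genes with the highest GW differences (left) and the 25 with the lowest (right), with a grey line from the IFN-γ to the GW value and a dotted line at the filter of 5.83. Genes on the left, such as Fosb (6.35, 6.58, 10.39 and 8.999), are highest in the GW array, and genes on the right, such as Cxcl9 (7.20, 9.73, 6.87 and 9.18), in the IFN-γ array. Since the IFN-γ and GW arrays chose the genes, the distance between these arrays is a description.

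Other stress programmes had list medians close to that of all genes. Of 16 genes of the unfolded protein response of the endoplasmic reticulum, 0 were called in either direction, and the median of -0.04 became 0.02 after quantile normalization, 0.05 after median centring and 0.08 after cyclic loess. The chaperone gene Hspa5 (BiP) differed by -0.04. ATF4 targets had 3 of 23 called higher and 0 lower, with a median of 0.04. The 3 included Chac1, which encodes an enzyme that degrades glutathione, at 8.53, 8.90, 11.04 and 10.12 (2.14), and Ppp1r15a (GADD34), a phosphatase subunit that restores translation, at 8.21, 10.38, 11.48 and 11.43 (1.10). Asparagine synthetase, Asns, another target, differed by -0.34. Of 12 p53 and GADD45 stress genes, 3 were called higher and 0 lower. Their median was -0.03, and it turned to 0.04, 0.06 and 0.05 under the same 3 scalings. Gadd45g stood at 8.76, 8.47, 11.49 and 10.56 (3.01) and Gadd45a at 10.58, 9.30, 11.03 and 10.38 (1.72), so in both the IFN-γ array was the lowest. The p53 target Cdkn1a (p21) differed by -0.37. Nrf2 and metal-response genes had 2 of 15 higher, the heme oxygenase gene Hmox1 (11.28, 10.71, 11.96 and 11.28) and the metallothionein gene Mt1 (12.07, 11.89, 13.08 and 12.91), and a median of 0.03.

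Clock genes and the Id genes were on the higher side. Of 14 circadian genes, 5 were called higher and 0 lower, with a median of 0.57, while the list stood at -0.12 for IFN-γ minus untreated. They were the repressor genes Nfil3 at 6.58, 6.73, 9.34 and 7.89 (2.61), Ciart at 7.66, 7.05, 9.20 and 8.61 (2.15), Per1 at 8.13, 8.05, 9.94 and 9.31 (1.90), Bhlhe40 at 10.27, 10.69, 12.08 and 11.40 (1.39) and Nr1d1 at 10.85, 10.10, 11.25 and 11.42 (1.16). Of the core activators, Clock differed by 0.37 and Bmal1 by -0.06. The Id genes encode inhibitors of basic helix-loop-helix factors and are BMP targets. Id1 stood at 8.56, 7.85, 9.95 and 9.20 (2.10) and Id3 at 9.03, 8.85, 10.04 and 9.70 (1.20), and the BMP list of 13 had 2 higher, 0 lower and a median of 0.52. In Id1 the IFN-γ array was the lowest of the 4. The Notch target Hes1 stood at 8.25, 7.9998, 10.61 and 9.76 (2.61) and the Notch feedback gene Nrarp at 6.07, 6.35, 8.12 and 7.66 (1.77), while Lef1, a Wnt pathway factor, was lower at -1.04, or -0.96 after median centring.

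Chemokine genes stood lower with GW than with IFN-γ alone. Of 21 past the filter, 6 were called lower and 0 higher, beside 0.95% and 0.958% of all genes, 17 were below 0 and the median was -0.63. The same list had a median of 1.28 for IFN-γ minus untreated and of -0.40 for SHP siRNA with IFN-γ and GW minus IFN-γ. These comparisons share the IFN-γ array, so a high value there raises the first and lowers the others.

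Cxcl9, Cxcl10 and Cxcl11, which encode the ligands of the T cell receptor CXCR3 and lie next to each other on chromosome 14, were all called. Cxcl9 stood at 7.20, 9.73, 6.87 and 9.18, a difference of -2.86, the lowest of all 11790 genes. It was 7.25-fold lower with GW, close to the untreated value. Cxcl11 stood at 8.69, 10.69, 9.04 and 9.80 (-1.65) and Cxcl10 at 10.78, 12.43, 11.24 and 11.82 (-1.19). In all 3 the IFN-γ array was the highest, and the SHP siRNA array lay between it and the GW array. The other called members were Cx3cl1 (fractalkine, the ligand of a microglial receptor) at 9.47, 11.99, 10.41 and 11.17 (-1.58), the monocyte attractant gene Ccl12 at 9.62, 10.22, 8.60 and 9.48 (-1.62) and the neutrophil attractant gene Cxcl6 at 9.09, 10.65, 9.46 and 9.25 (-1.20). Not every member was lower: Cxcl1, a neutrophil attractant, stood at 9.13, 11.65, 11.92 and 12.03 (0.26) and Ccl2 differed by -0.24. Cxcl1 was thus high in all 3 arrays with IFN-γ.

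The promoters of Cxcl10, Cxcl11 and Gbp7 are shown because IFN-γ targets are classically read through the GAS element (TTCNNNGAA), the ISRE (bound by IRFs) and the NF-kB site. All are on the plus strand of GRCr8: chr14:15988816-15989065 for Cxcl10 (250 bases), chr14:15973598-15973727 for Cxcl11 and chr2:233948759-233948888 for Gbp7 (130 bases each), ending just before the start. Capitals mark GAS, ISRE, NF-kB and AP-1 (TGACTCA) matches on either strand.
Cxcl10: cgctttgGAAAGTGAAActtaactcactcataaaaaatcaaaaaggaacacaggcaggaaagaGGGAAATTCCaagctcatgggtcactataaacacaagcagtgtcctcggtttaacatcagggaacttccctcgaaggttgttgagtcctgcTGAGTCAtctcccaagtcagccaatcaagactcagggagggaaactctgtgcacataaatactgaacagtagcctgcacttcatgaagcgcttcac
Cxcl11: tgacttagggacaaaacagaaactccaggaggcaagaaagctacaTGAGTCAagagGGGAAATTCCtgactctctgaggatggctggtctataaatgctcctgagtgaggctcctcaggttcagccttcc
Gbp7: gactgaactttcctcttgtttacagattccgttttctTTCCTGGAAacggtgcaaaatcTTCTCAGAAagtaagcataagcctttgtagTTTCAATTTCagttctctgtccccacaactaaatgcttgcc
In Cxcl10 the ISRE began at -243, the NF-kB site at -187 and the AP-1 site at -96. In Cxcl11 the AP-1 site began at -85 and the NF-kB site at -74, and a GAS match began at -250, outside the stretch printed. In Gbp7 the GAS matches began at -93 and -71 and the ISRE at -41. Over all matched promoters, a GAS match was in 14.4% of lower genes (13 of 90), 4.49% of higher genes and 6.63% of all. The NF-kB site was in 12.2% of lower, 10.1% of higher and 4.95% of all, the ISRE in 8.89%, 5.62% and 3.08%, and the TATA box TATAAA in 17.8%, 19.1% and 6.98%. The NF-kB site, the ISRE, the TATA box, the AP-1 site, the heat shock element and the NBRE (AAAGGTCA) were thus each in larger shares of both called groups than of all promoters. The NBRE was in only 1 of 89 higher and 2 of 90 lower promoters, against 0.744% of all. In the higher genes the ISRE and the AP-1 site were in 5 of 89 each. Counts this small leave the order of the shares uncertain. The DR4 repeat that liver X receptors bind, searched as an exact pair of AGGTCA half-sites, was in 0 of the promoters of either group and 0 of all, which says only that these letters are not in these windows.

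**Figure D3:**
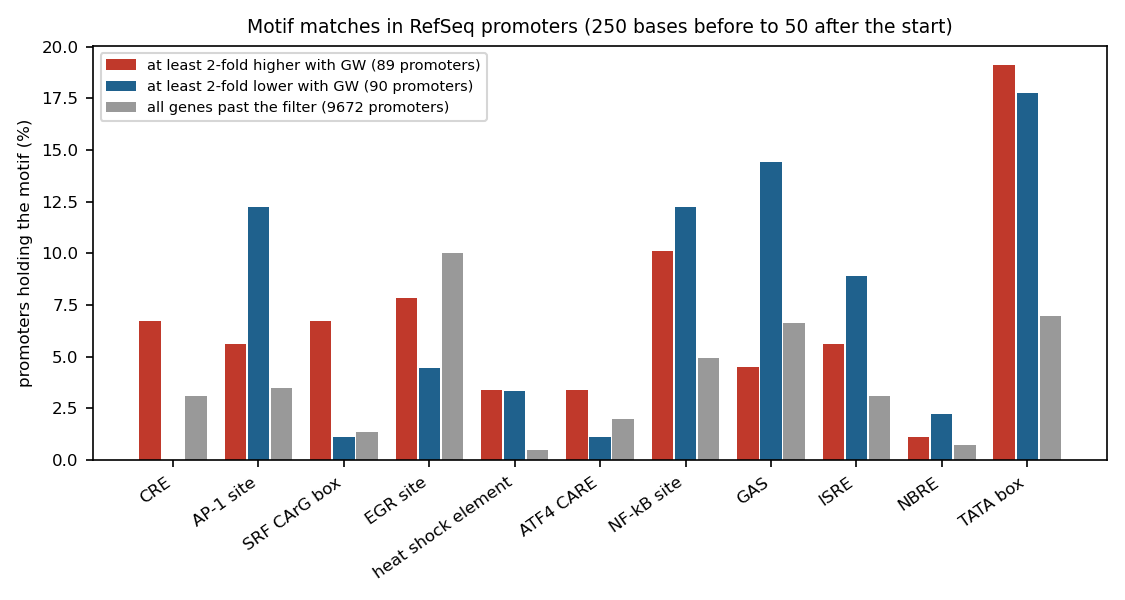
Bars give the percent of promoters holding each motif on either strand (all those searched but DR4, which none held), for the 89 higher genes, the 90 lower genes and all 9672 genes with a promoter in RefSeq. The CRE and the CArG box have their tallest bars in the higher genes (6.74% each), the GAS element in the lower genes (14.4%), and the TATA box stands at 19.1% and 17.8% in the called groups against 6.98% of all.

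Inflammatory cytokine and enzyme genes had a median of -0.75, with 7 of 20 called lower and 0 higher, beside 0.95% and 0.958% of all genes. Il1b and Il1a, neighbours that encode both interleukin-1 agonists, stood at 9.20, 11.12, 9.18 and 10.06 and 8.85, 11.68, 10.25 and 10.90, differences of -1.94 and -1.43. Il1b with GW was at its untreated level, while Il1a with GW was more than 1 log2 unit above its own. Acod1, the itaconate-producing enzyme of activated macrophages, stood at 7.26, 9.83, 8.19 and 8.97 (-1.65) and Nos2, inducible nitric oxide synthase, at 5.83, 8.30, 6.72 and 7.35 (-1.58). Il12a (-1.56), the lymphocyte growth factor gene Il15 (-1.24) and the prostaglandin E synthase gene Ptges (-1.02) were also lower, of which Il12a and Il15 lay below 5.83 with GW. Il15 passed the filter only through the IFN-γ array, so the filter fixed its sign. Ptgs2 (cyclooxygenase 2) stood at 8.45, 11.14, 12.07 and 11.61 and Il6 at 6.72, 10.45, 10.95 and 10.03, so these were higher with GW, by 0.93 and 0.49, and within 2-fold. Tnf stood at 8.31, 11.49, 10.76 and 11.44 (-0.73).

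Costimulatory molecules and TNF superfamily ligands had the lowest median of all lists, -0.90, with 6 of 13 called lower, 0 higher and all 13 below 0. Tnfsf18 and Tnfsf4 passed the filter only through the IFN-γ array, so the filter fixed their sign. After quantile normalization, median centring or cyclic loess all 13 were still below 0, and 5 were called, since Cd83 moved from -1.04 to between -0.98 and -0.94. The count of 13 depends on the probe kept for Cd80, at -0.43, since its other probe past the filter stood at 0.24. Tnfsf18, the ligand of GITR, stood at 4.22, 6.999, 4.50 and 5.50 (-2.50), below 5.83 in the untreated and both GW arrays, so the size is uncertain. Cd69, an early activation antigen of lymphocytes, stood at 6.21, 8.35, 5.89 and 6.35 (-2.46), Cd86 at 9.01, 10.31, 9.02 and 9.89 (-1.30) and Cd40 at 6.32, 7.99, 6.75 and 7.32 (-1.24). Cd86 with GW was at its untreated level, and the SHP siRNA array lay between.

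Feedback genes of NF-κB had 3 of 19 lower, 0 higher and a median of -0.47. They were Tnip3, a partner of the inhibitor A20, at 6.79, 7.78, 5.84 and 6.60 (-1.95), Tnfaip2 at 9.09, 11.56, 10.36 and 11.24 (-1.20) and Nfkb2, the p100 subunit, at 8.32, 9.93, 8.85 and 9.38 (-1.09). Of 19 pattern recognition and inflammasome genes, 2 were lower, 0 higher, with a median of -0.41: the inflammasome sensor Nlrp3 at 6.67, 8.93, 7.05 and 8.04 (-1.88) and the endotoxin co-receptor Cd14 at 10.18, 11.07, 9.82 and 10.27 (-1.25). In Tnip3 and Cd14 the GW array lay below the untreated array as well.

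The classical IFN-γ target lists were lower by small amounts. All 9 guanylate-binding and immunity-related GTPases were below 0 under each scaling tried, with a median of -0.60 and 1 called, Gbp7, at 10.27, 11.37, 10.01 and 9.996 (-1.36). Ifi47 (-0.92) and Gbp5 (-0.86) were within 2-fold. Of 27 antiviral genes, all were below 0 with a median of -0.30 and 0 were called. The greatest difference was that of the nucleotide kinase gene Cmpk2 at 10.25, 11.26, 10.27 and 10.49 (-0.99). After median centring or cyclic loess 24 of the 27 were below 0. The 21 antigen processing and presentation genes were all below 0 too, with a median of -0.30 and 0 called, and 17 after median centring or cyclic loess. The proteasome activator gene Psme2 stood at 11.36, 11.40, 10.62 and 10.62 (-0.78) and the invariant chain gene Cd74 at 10.41, 9.95, 9.85 and 9.83 (-0.10). The antigen presentation list had a median of -0.12 for IFN-γ minus untreated, so at 3 h it was not above the untreated culture. Reference genes, which serve as a comparison, had a median of -0.23 with 0 of 11 called and 9 below 0, and Actb differed by 0.06. Of all 11790 genes 6817 were below 0, so a sign below 0 is by itself not particular to these lists.

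Of 20 genes of the IFN-γ receptor, JAK-STAT, IRF and SOCS group, 1 was higher, 1 lower, and the median was -0.15. The list did not hold Stat5a, which is given further below and was also called lower. The SOCS genes, which encode inhibitors of cytokine receptors, went in opposite directions. Socs1, the main inhibitor of IFN-γ signalling, stood at 6.70, 8.60, 6.73 and 7.88 (-1.87), close to the untreated level with GW. Socs3, an inhibitor of the interleukin-6 family pathway, stood at 8.76, 9.05, 10.82 and 9.84 (1.76). Irf1, a transcription factor gene of the early IFN-γ response, stood at 9.44, 12.07, 11.93 and 12.28, high in every array with IFN-γ and within 0.4 among them (-0.14). The receptor genes Ifngr1 and Ifngr2 differed by -0.41 and -0.63.

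**Figure D4:**
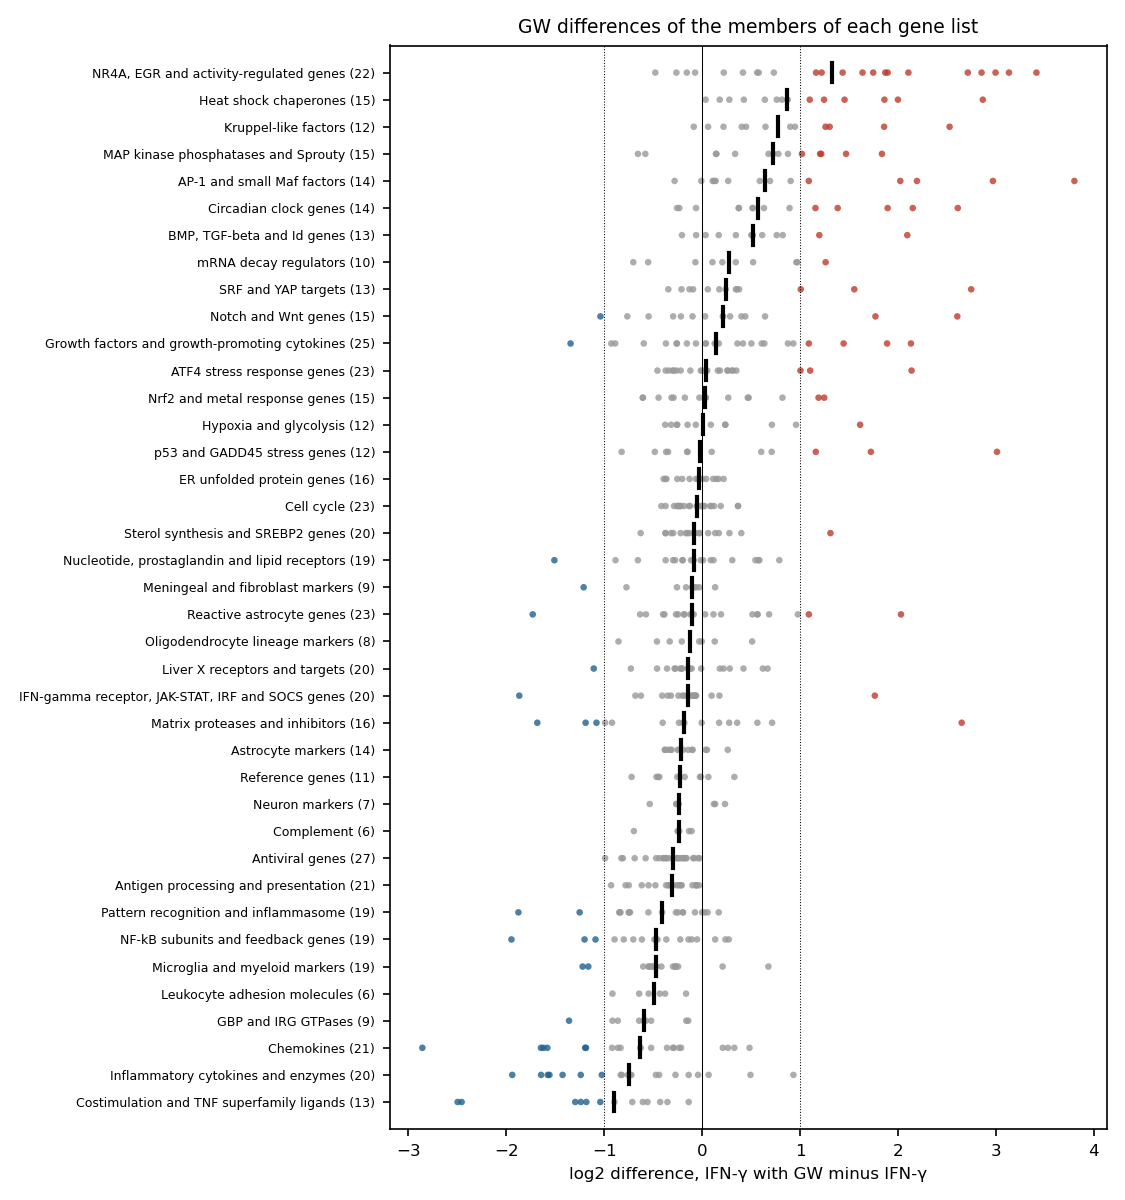
Each row is a gene list, each dot the GW difference of 1 gene past the filter, and the bar its median, on a log2 axis with lines at 0 and at 2-fold in each direction (red and blue dots lie beyond these). The median of all genes was -0.05. The NR4A and EGR list (1.33), heat shock chaperones (0.87) and Kruppel-like factors (0.77) lie highest, and costimulation (-0.90), inflammatory cytokines (-0.75) and chemokines (-0.63) lowest.

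Genes of sterol-sensing nuclear receptors gave small differences. Of 20 liver X receptor targets and receptors, 0 were higher and 1 lower, with a median of -0.14. The lysosomal cholesterol transporter gene Npc1 was the member called, at 8.66, 8.72, 7.61 and 7.82 (-1.11). The cholesterol efflux genes Abca1 at 10.18, 10.12, 10.34 and 10.64 (0.22) and Abcg1 (0.42), the ligase gene Mylip (0.67), which limits LDL uptake, and the lipogenic factor gene Srebf1 (0.62) were higher but within 2-fold. The receptor genes Nr1h2 and Nr1h3 differed by -0.46 and -0.36. Of 20 sterol synthesis genes, 1 was higher, Insig1, which encodes the protein that retains SREBP in the endoplasmic reticulum, at 8.62, 8.22, 9.53 and 9.24 (1.31), and 0 were lower. Their median was -0.08, which became 0.00168 after median centring. Of 11 farnesoid X receptor and SHP genes measured, 2 passed the filter, and neither was called (Abcb4 at -0.37 and Fgf19 at -0.02). Nr0b2 did not pass, with 5.33, 5.14, 5.20 and 3.45, so it differed by 0.05 between the compared arrays, at a level that may be background.

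The microglia and myeloid markers stand beside the inflammatory lists, whose genes these cells also express. Of the 19, 2 were called lower and 0 higher: the adaptor gene Tyrobp at 10.24, 9.90, 8.68 and 8.83 (-1.22) and the leukocyte phosphatase gene Ptprc (CD45) at 8.86, 9.09, 7.93 and 8.52 (-1.16). In the other direction Cx3cr1, the fractalkine receptor, differed by 0.68 and Tmem119 by 0.21. The part of these cells in the lower values of cytokine, chemokine and costimulatory genes was not tested. Reactive astrocyte genes had a median of -0.10 with 2 of 23 higher and 1 lower, a median that turned to 0.01 after cyclic loess and whose mean was 0.08. Of the 23, 10 were above 0 and 13 below. Ptx3, a pentraxin and the highest of that list, stood at 6.26, 7.60, 9.63 and 8.41 (2.03). Srgn, the member called lower, stood at 8.04, 8.96, 7.23 and 8.02 (-1.73).

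Of the called genes, 51 of the 113 higher and 75 of the 112 lower were in none of the 41 lists. Among the highest of these were Flrt3, an adhesion protein gene of developing neurites, at 8.55, 8.75, 11.37 and 10.90 (2.62), and Zfand2a, an arsenite-inducible proteasome regulator gene, at 8.57, 8.79, 11.21 and 10.16 (2.41). The cyclin gene Ccnl1 stood at 8.16, 9.24, 11.38 and 10.58 (2.13). The following were chosen after their values were seen. The insulin receptor substrate genes Irs1 and Irs2 stood at 7.78, 7.12, 8.42 and 8.36 and 8.75, 8.82, 10.69 and 9.89. The pseudokinase gene Trib1 stood at 7.73, 7.84, 9.86 and 8.67 and its neighbour Myc at 8.31, 8.80, 10.15 and 9.84. The inositol transporter gene Slc5a3, a target of osmotic stress, stood at 8.23, 8.07, 9.79 and 9.10 and the calcineurin inhibitor gene Rcan1 at 9.15, 9.67, 11.33 and 10.61. In each of these the GW array was the highest of the 4.

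Other genes among the 25 lowest were in none of the lists. Spib, an ETS factor of B cells, stood at 5.45, 7.77, 5.74 and 6.60 (-2.03), and Cxcr5, the receptor of the chemokine CXCL13, at 4.75, 7.76, 5.88 and 7.01 (-1.89). Icoslg, the ligand of the costimulatory receptor ICOS, stood at 6.85, 8.06, 6.40 and 7.20 (-1.67). The C-type lectin genes Clec4d and Clec4e, next to each other, stood at 4.28, 6.36, 4.59 and 5.17 and 4.20, 6.37, 4.62 and 5.45. Spib was below 5.83 with GW and in the untreated array, and Cxcr5 was below it only in the untreated array. Clec4d and Clec4e were below it in every array but IFN-γ, so the filter fixed their sign. S100a5, a calcium-binding protein gene, stood at 5.22, 7.19, 4.55 and 4.60 and Plet1 at 5.98, 7.54, 5.36 and 5.33. In both, the pair of GW arrays lay together and below 5.83. S100a5 was below it in the untreated array too, so the filter fixed its sign. Vof16 stood at 9.74, 9.82, 8.17 and 9.64, with the GW array alone standing low. Chosen after their values were seen, the necroptosis kinase gene Ripk3 stood at 6.73, 8.97, 7.41 and 7.98, Ripk2, which acts downstream of NOD receptors, at 9.20, 11.75, 10.42 and 11.55, the scavenger receptor gene Olr1 at 6.72, 10.37, 8.77 and 9.76 and the transcription factor gene Stat5a at 8.03, 9.18, 7.90 and 8.35. In each of these the IFN-γ array was highest and the SHP siRNA array lay between it and the GW array.

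The remaining lists held small numbers of called genes. In lists this short even 1 called gene is a larger share than the 0.958% of all genes called higher or 0.95% called lower. Of 16 matrix proteases and inhibitors, 1 was higher, the protease inhibitor gene Tfpi2 at 6.14, 7.07, 9.72 and 8.63 (2.65), and 3 were lower, among them the aggrecan protease gene Adamts4 at 6.71, 8.39, 6.71 and 6.50 (-1.68), with a list median of -0.19. Of 19 receptors for nucleotides, prostaglandins and lipids, 0 were higher and 1 lower, the niacin receptor gene Hcar2 at 7.35, 10.32, 8.81 and 9.36 (-1.51), with a median of -0.09. The 10 regulators of mRNA decay had 1 higher, Zfp36l2 (1.26, with its other probe at 0.95), 0 lower and a median of 0.28. The 12 hypoxia and glycolysis genes had 1 higher, the vasodilator gene Adm at 8.15, 7.63, 9.25 and 8.12 (1.61), 0 lower and a median of 0.01, or -0.06 without the filter. The 15 Notch and Wnt genes had 2 higher, 1 lower and a median of 0.21.

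Some lists had no called gene in either direction. These were the 6 leukocyte adhesion genes (median -0.49), of which Vcam1 stood at 10.79, 12.22, 11.30 and 11.86 (-0.92), and the 6 complement genes (-0.24), of which C3 differed by -0.25. All 6 adhesion genes were below 0 under each scaling tried, and 5 of the 6 complement genes after cyclic loess. The 23 cell cycle genes had a median of -0.06, or 0.03 after median centring. The 8 oligodendrocyte markers (-0.12) and 7 neuron markers (-0.24) also had 0 called. Of 9 meningeal and fibroblast markers, 1 was lower, the retinoic acid synthesis gene Aldh1a2 (-1.21), with a median of -0.10, and 2 endothelial markers passed the filter.

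Several called genes lay next to each other. Among genes past the filter, in the gene order of RefSeq assembly GRCr8, 11 runs of adjacent genes called in the same direction held 24 genes, 5 runs on the higher side and 6 on the lower. Beside those above, Atf3 lay next to Garin4 on the higher side, at 5.04, 4.65, 7.39 and 6.69, and Hspd1 and Hspe1 next to Coq10b, a coenzyme Q protein gene, at 8.06, 8.85, 10.22 and 9.75. Adjacent genes can share a promoter or a transcript end, so their values need not be independent. Clec4d and Clec4e formed a run on the lower side, and the filter had fixed the sign of both.

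Both called groups differed from all genes in gene length, and the lower group also in promoter GC. The median distance from the first to the last base of the gene was 8752 bp for higher genes, 13022 bp for lower genes and 22636 bp for all. Median promoter GC was 61% for higher genes, close to the 60.7% of all, and 51.3% for lower genes. The motif shares above were not adjusted for GC.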

How the data were processed

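The deposited table of the authors holds 1 value per probe for each of 4 single-colour arrays (29489 probes), between 1.14 and 13.4. It was read as log2 signal, which neither the table nor the labels state, and every fold depends on that reading. RNA was taken with Trizol and labelled with biotin, per the labels' protocols. How background was corrected, probes summarised and arrays normalized is, in the sources used here, not given.

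The probe annotation named 18511 probes with 1 symbol. It gave none to 10403 and more than 1 to 575, which stayed unnamed here. Of the named probes, 18394 matched the RefSeq table of assembly GRCr8, which supplied current symbols. The number of array columns not used was 0. Array medians ran from 5.79 to 5.87. Of the 11790 genes past the filter, 217 passed only through the untreated or SHP siRNA array.

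Differences were computed from the deposited log2 values without further scaling. Counts, list medians and promoter matches were made in Python 3.11.15 with numpy 2.4.6 and pandas 2.3.3. The counts at 2-fold and the median of a set of shifted genes were tested on simulated data, and the promoter search was not. For scaling by quantiles and by cyclic loess, limma 3.58.1 was run under R 4.3.3. Promoters were searched for 12 motifs. Named genes were the 25 highest and 25 lowest of at least 1.5-fold, without provisional, olfactory, vomeronasal, taste receptor and small RNA symbols. To these came up to 6 members per list by size of difference, all members of the AP-1, NR4A and EGR, chemokine and liver X receptor lists, and the receptor genes given. Other genes given in the text, such as Irf1, Hspa5, Asns and Cd74, fell outside this rule. They were not among the 306 genes examined under other scalings. The members, the 41 lists and the rule were chosen with earlier results of these data known. Alternatives were 3 scalings, thresholds of 1.5-fold and 3-fold, no filter, a filter on the mean, the mean of a gene's probes, the mean of a list, and promoters without the bases after the start.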

Additional observations from a re-analysis of the deposited data

How the results depend on the processing

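The direction of all 306 named genes examined under the 3 scalings and the mean of probes held wherever the difference had been called. Cd83, Dusp4, Lef1 and Mmp12 dropped under 2-fold in at least 1 of these, and Junb, Klf5, Lif, Pfkfb3, Sphk1, Tob1 and Zfp36 passed it. The counts of higher and lower genes, 113 and 112, became 332 and 586 at 1.5-fold and 50 and 26 at 3-fold, by the construction of those thresholds. They were 119 and 107 after quantile normalization, 129 and 88 after median centring, 123 and 107 after cyclic loess, 114 and 111 with the mean of probes, 131 and 127 without the filter, and 110 and 99 with the filter on the mean. Of the list medians under alternatives, 249 moved by less than 0.1, 22 moved by more, and 2, both of reactive astrocyte genes, turned sign from a size of at least 0.1. Medians smaller than that turned sign under some setting for the unfolded protein response, p53 and GADD45, sterol synthesis, hypoxia and cell cycle lists. The mean of the list in place of the median gave 1.04 for AP-1, 0.87 for Kruppel-like factors, 0.26 for growth factors, 0.47 for SRF and YAP targets, 1.03 for heat shock, 0.16 for ATF4 targets, 0.42 for p53 and GADD45 genes, 0.14 for Nrf2 and metal genes, -1.03 for costimulation, 0.85 for clock genes, 0.20 for hypoxia, -0.12 for neuron and -0.28 for meningeal markers, and 0.076, a turned sign, for reactive astrocyte genes. Cyclic loess gave 0.078 for the unfolded protein response, -0.52 for chemokines, -0.082 for proteases, -0.12 for complement, -0.11 for reference genes, -0.10 for astrocyte and -0.12 for neuron markers, and 0.014, a turned sign, for reactive astrocyte genes. Chemokines without the filter stood at -0.52, and NR4A and EGR genes with the filter on the mean at 1.22. Without the bases after the start, the shares of all promoters were 8.55% for the EGR site, 4.29% for the NF-kB site and 5.86% for GAS. The cause of these moves was not tested. Median centring moved the share of calls that were higher from 50.2% to 59.4%. No paired analysis was possible because each group holds 1 array, and no array could be left out for the same reason. A pseudocount was not run, since the values were read as log2 already. The farnesoid X receptor and endothelial lists had too few genes past the filter for a median. The number of arrays limits the precision, and low values have an unknown background.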

Other observations

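Histone genes, a group picked by symbol after the values were seen, stood mostly on the higher side with GW. Among the 28 that passed, 7 reached 2-fold on the higher side and 0 on the lower, beside 0.958% and 0.95% of all genes. Of the 28, 22 were above 0, and the median difference was 0.45, with a range from -0.65 to 2.09. The highest was Hist2h2bb, at 8.26, 7.68, 9.77 and 9.10 in the untreated, IFN-γ, IFN-γ with GW, and SHP siRNA arrays. The same 28 genes had a median of -0.20 for IFN-γ minus untreated and of 0.55 for SHP siRNA with IFN-γ and GW minus IFN-γ, comparisons that share the IFN-γ array. Histone genes are near-identical copies, so a probe may measure several of them.

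Where a gene had several probes past the filter, as 167 genes did, the median spread between its probes' GW differences was 0.10, and it was under 0.5 for 157 of them. Of these genes 6 were called, all with the same sign in every probe, and in 3 of them all probes passed 2-fold. The probes of Jun gave 2.01 and 2.02, those of Mt1 1.19 and 1.97. Those of Zfp36l2 gave 0.95 and 1.26, those of Hspd1 0.94 and 1.25 and those of Apol3l1 -0.75 and -1.23. In each of these the other probe, not the one kept, lay within 2-fold. Of the 3683 probes past the filter without a single symbol, 49 were at least 2-fold higher with GW and 29 lower. Among the 11790 genes past the filter these counts were 113 (0.958%) and 112 (0.95%).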
